A study of Mus musculus with 18 samples.

Results

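The secreted and membrane-bound metalloproteinases that cut extracellular matrix, and the TIMP genes that encode their inhibitors, were followed through the conversion of mouse fibroblasts into cardiomyocyte-like cells. The members were all genes whose symbol is Mmp, Adam, Adamts or Timp followed by a number (and at most 1 letter) and that had a probe set naming no other gene. There were 78 such genes among the 19912 measured, comprising 22 Mmp, 34 Adam, 18 Adamts and 4 Timp genes. Adamts2 and Mmp15 had no such probe set and were not analysed here. RNA was hybridised to Affymetrix mouse Gene 1.0 ST arrays, 18 in all, with 3 per group. The groups were GFP+ induced cardiomyocyte-like cells (iCMs) at 4 weeks and at 2 weeks, GFP- cells in which reprogramming had failed at 4 weeks and at 2 weeks, neonatal cardiomyocytes (CM) and neonatal cardiac fibroblasts (CF). All cells were of the CD1 strain. The labels name neither the reprogramming factors nor the promoter that drives GFP, and iCMs and GFP- cells are told apart by GFP. Biological triplicates are stated in the design text without naming the culture or animal behind each array, and the p-values cover only the spread among arrays of a group.

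Matrix metalloproteinases (MMPs) are zinc enzymes that cleave collagens, gelatin, elastin, laminin and other matrix proteins, and most are made as inactive proenzymes. Tissue inhibitors of metalloproteinases (TIMPs) bind their active sites. ADAM proteins are membrane-anchored relatives, several of which release the outer parts of cell surface proteins, and ADAMTS proteins are secreted relatives that cut proteoglycans such as versican and aggrecan or process procollagen. In the heart, fibroblasts and macrophages are known sources of these enzymes, and versican cleavage by ADAMTS enzymes is part of heart development.

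Array medians lay between 7.32 and 7.44 log2 intensity. The mean of 8 cardiomyocyte markers was 12.11 in iCMs at 4 weeks, 11.35 in iCMs at 2 weeks, 8.48 in GFP- cells at 4 weeks, 8.40 in GFP- cells at 2 weeks, 13.11 in CM and 7.57 in CF. The mean of 10 fibroblast markers lay between 8.44 and 9.51 in the other groups and at 10.39 in CF. The mean of 12 macrophage markers was 9.30 in iCMs at 4 weeks, 9.74 in iCMs at 2 weeks, 12.01 in GFP- cells at both times, 6.70 in CM and 11.83 in CF. Macrophage transcripts were therefore abundant in the arrays labelled GFP- and CF, and iCMs lay between these and CM. The mean of 6 endothelial markers was 7.30 in iCMs at 4 weeks, 6.93 in iCMs at 2 weeks, 9.09 in GFP- cells at 4 weeks, 8.03 in GFP- cells at 2 weeks, 9.22 in CM and 6.77 in CF, and all 6 were higher in CM than in CF. The mean of 4 smooth muscle markers lay between 8.66 and 9.96 in all groups. In bulk RNA of this kind, fewer cells of a type and less RNA per cell cannot be told apart.

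Levels are log2 intensities of a probe set as deposited, and differences are log2 differences between group means with their standard error (SE) from limma, fitted on all 19912 genes. A gene counts as called where its Benjamini-Hochberg adjusted p was below 0.05. A level under 6.16 log2 was treated as too dim to rank. That limit, the lowest 25th percentile of any array, was set after the data had been seen, and a difference from a group whose mean lay under it is given as "at least", with the limit in place of each array of either group that lay under it. By this measure 51 members were above the limit in every group, 10 were under it in some groups and 17 were under it in all 6 groups. Of the 17, 15 belonged to the 22 germ line and other ADAM genes, many of which are known for roles in sperm.

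Of the 78 members, 54 were called in at least 1 of the 11 comparisons between pairs of groups and 24 in none, while 66.5% of all genes were called in at least 1, so this count says nothing particular of the members. In iCMs at 4 weeks against CF, 29 members (37.2%) were called, where 29.5% of all genes were. Of these, 6 were higher, beside 14.3% of all genes, and 23 lower, beside 15.2%. At 2 weeks against CF, 32 (41.0%) were called, beside 33.3% of all genes, with 8 higher (17.4% of all genes) and 24 lower (15.8% of all genes). In GFP- cells at 4 weeks, 19 members (24.4%) were called against CF, beside 11.5% of all genes, with 4 higher (5.79% of all genes) and 15 lower (5.70% of all genes). The GFP- cells at 2 weeks had 21 members (26.9%) called against CF, beside 22.7% of all genes, with 7 higher (13.8% of all genes) and 14 lower (8.93% of all genes). In CM against CF, 41 members (52.6%) were called, beside 41.0% of all genes, with 12 higher (19.6% of all genes) and 29 lower (21.5% of all genes). These 5 comparisons share the CF arrays, and in each of them more members were lower than higher. In iCMs, and in GFP- cells at 2 weeks, the share of members called was near that of all genes, so those totals alone say nothing particular of the members. A difference of at least 2-fold was called for 14 members between iCMs at 4 weeks and CF, beside 7.74% of all genes, and for 20 members between CM and CF, beside 11.8% of all genes.

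Against GFP- cells at the same time, iCMs had 32 members (41.0%) called at 4 weeks, where 34.2% of all genes were, with 12 higher (17.2% of all genes) and 20 lower (17.1% of all genes). At 2 weeks 28 (35.9%) were called, beside 34.5% of all genes, with 11 higher (16.2% of all genes) and 17 lower (18.4% of all genes). A difference of at least 2-fold was called for 14 members at 4 weeks, beside 8.55% of all genes, and for 10 at 2 weeks, beside 9.03% of all genes. Against CM, 30 members (38.5%) were called in iCMs at 4 weeks, beside 35.1% of all genes, with 16 higher (19.0% of all genes) and 14 lower (16.1% of all genes). At 2 weeks 28 were called against CM, beside 42.1% of all genes, with 15 higher (22.7% of all genes) and 13 lower (19.4% of all genes). The median difference over the members in iCMs at 4 weeks was -0.04 against CF, beside 0.02 over all genes, and 0.01 against GFP- cells, beside 0.05 over all genes. These medians include the 17 members under the limit in all groups, so they do not show how the brighter members moved. Called members of iCMs at 4 weeks went in both directions, with 6 higher and 23 lower against CF.

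**Figure D1:**
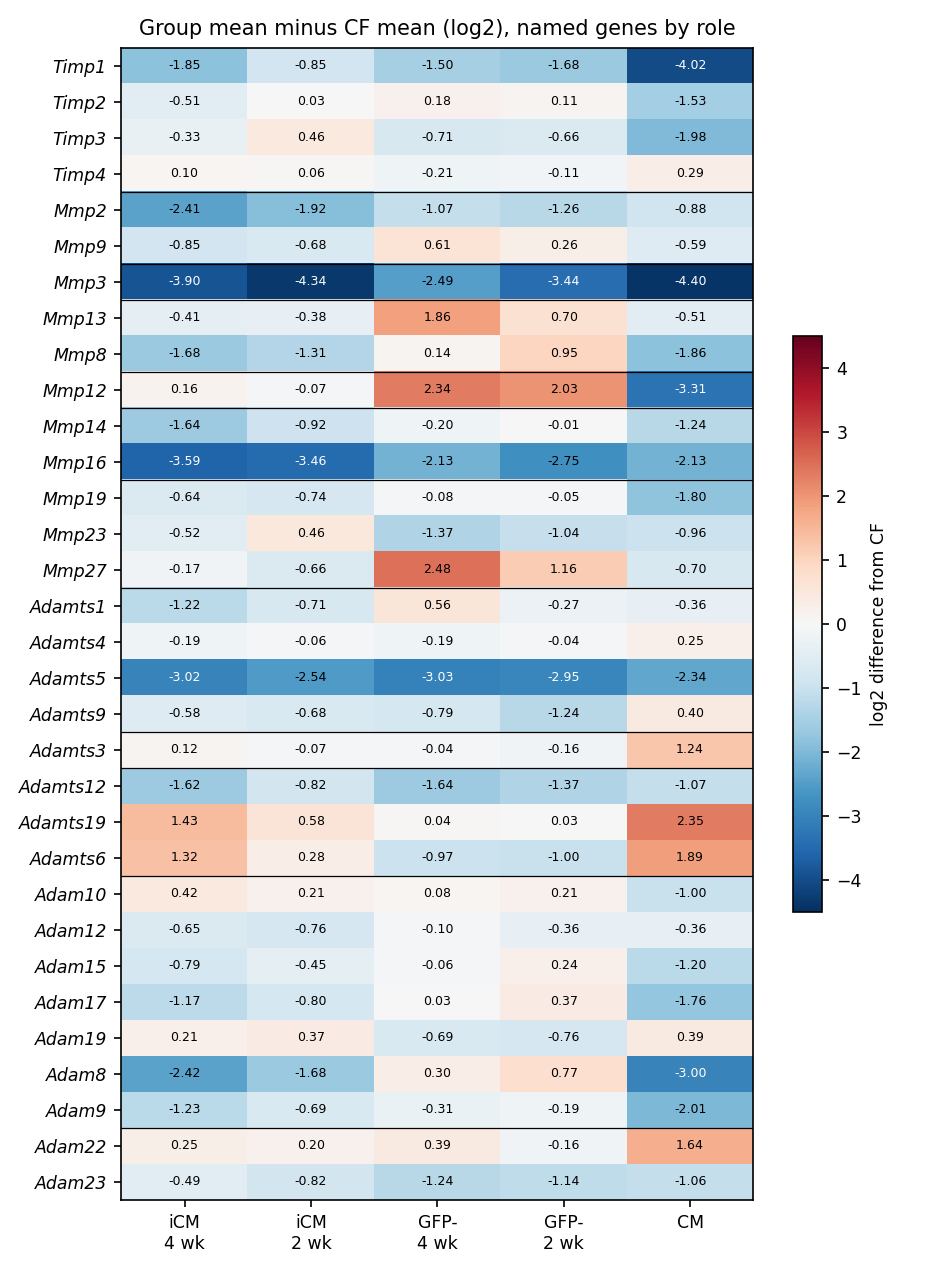
Group mean minus CF mean (log2) for the 32 named genes, grouped by role, with columns for iCMs at 4 and 2 weeks, GFP- cells at 4 and 2 weeks, and CM; blue is lower and red is higher than CF. Mmp3, Mmp16 and Adamts5 are lower than CF in all 5 columns, and Mmp12 is 2.34 higher in GFP- cells at 4 weeks and 3.31 lower in CM. Mmp8, Adamts6 and Adam22 include group means under the limit of 6.16, for which the printed value is not a measured fold.

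The inhibitors were all lowest in CM apart from Timp4. Timp1 encodes a secreted inhibitor of most MMPs. Its level was 9.51, 9.76 and 10.01 in iCMs at 4 weeks and 10.72, 10.81 and 10.75 in iCMs at 2 weeks. In GFP- cells it was 10.31, 9.99 and 10.04 at 4 weeks and 9.78, 10.22 and 9.82 at 2 weeks. CM had 7.74, 7.47 and 7.56, and CF had 11.93, 11.58 and 11.34. Every CF array was above every array of the other groups, every CM array was below them, and iCMs at 2 weeks lay above iCMs at 4 weeks without overlap. Timp1 was lower than in CF by 4.02 ± 0.15 in CM (16.3-fold, adjusted p = 1.39e-14), by 1.85 ± 0.15 in iCMs at 4 weeks (3.61-fold, adjusted p = 4.82e-09) and by 0.85 ± 0.15 in iCMs at 2 weeks. Between the 2 times Timp1 fell by 1.00 ± 0.15 in iCMs (adjusted p = 0.00028), while in GFP- cells the difference was 0.18 ± 0.15 (adjusted p = 0.465). The difference between these time courses was itself called, at -1.18 ± 0.21 (adjusted p = 0.00265) and held in all 20 alternative settings.

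Timp3 encodes the inhibitor that binds to the matrix and also blocks several ADAM and ADAMTS enzymes. It had 11.51, 11.65 and 11.87 in iCMs at 4 weeks and 12.43, 12.46 and 12.50 in iCMs at 2 weeks, against 11.57, 11.24 and 11.07 in GFP- cells at 4 weeks and 11.08, 11.69 and 11.26 at 2 weeks. CM had 10.00, 10.17 and 9.90, and CF had 12.28, 12.06 and 11.68. The 3 arrays of iCMs at 2 weeks were the highest of all 18, and the CM arrays were the lowest. Against CF (mean 12.01), Timp3 was called higher in iCMs at 2 weeks (mean 12.46). That call was lost under quantile normalization (0.39, adjusted p = 0.0582). It was also lost on leaving out single arrays, among them CF replicate 3 (0.29, adjusted p = 0.221). In iCMs at 2 weeks Timp3 was higher than in GFP- cells by 1.12 ± 0.16 (adjusted p = 1.06e-05), while at 4 weeks the groups overlapped and the difference was 0.38 ± 0.16 (adjusted p = 0.0778). Within iCMs Timp3 fell by 0.79 ± 0.16 between 2 and 4 weeks (adjusted p = 0.00326).

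Timp2, whose product both inhibits MMPs and takes part in activating proMMP-2 together with MT1-MMP, lay between 11.12 and 11.18 in iCMs at 4 weeks and between 11.61 and 11.79 in iCMs at 2 weeks. GFP- cells were between 11.71 and 11.92 at 4 weeks and between 11.75 and 11.80 at 2 weeks. It was lower in iCMs than in GFP- cells at 4 weeks by 0.69 ± 0.11 (adjusted p = 2.92e-05), whereas at 2 weeks the difference was -0.08 ± 0.11 (adjusted p = 0.654). CM, at 10.40, 10.18 and 9.87, lay below CF, at 11.78, 11.64 and 11.60, by 1.53 ± 0.11 (adjusted p = 2.77e-10). Against CM, iCMs at 4 weeks stayed higher for Timp1 by 2.17 ± 0.15, for Timp2 by 1.01 ± 0.11 and for Timp3 by 1.65 ± 0.16. Timp4, known as an inhibitor of the adult heart, was near the limit in every group, between 6.05 and 6.75 over all 18 arrays.

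The gelatinase gene Mmp2 and the membrane-type genes Mmp14 and Mmp16 were lower in iCMs than in either GFP- cells or CF, at both times. Mmp2 encodes gelatinase A, which is activated at the cell surface by MT1-MMP, the product of Mmp14. Mmp2 was 7.92, 7.48 and 7.63 in iCMs at 4 weeks and 8.05, 8.29 and 8.15 in iCMs at 2 weeks, against 9.25, 9.18 and 8.63 in GFP- cells at 4 weeks and 8.62, 9.20 and 8.65 at 2 weeks. CM had 9.44, 9.09 and 9.09, and CF had 10.30, 10.10 and 9.87. All 6 iCM arrays lay below all other arrays, CM included, and CF was the highest group. In iCMs at 4 weeks Mmp2 was lower than in CF by 2.41 ± 0.17 (5.32-fold, adjusted p = 9.7e-10), lower than in GFP- cells by 1.34 ± 0.17 (adjusted p = 3.22e-06) and lower than in CM by 1.53 ± 0.17 (adjusted p = 5.48e-07).

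Mmp14 was 8.48, 8.65 and 8.48 in iCMs at 4 weeks and 8.89, 9.61 and 9.28 in iCMs at 2 weeks, against 10.09, 9.83 and 10.01 in GFP- cells at 4 weeks and 9.98, 10.49 and 10.02 at 2 weeks. CM had 9.00, 9.01 and 8.80, and CF had 10.14, 10.19 and 10.19. The iCM arrays lay below all GFP- and CF arrays at both times. At 4 weeks iCMs were below CF by 1.64 ± 0.15 (adjusted p = 2.38e-08) and below GFP- cells by 1.44 ± 0.15 (adjusted p = 1.35e-07). GFP- cells at 4 weeks differed from CF by -0.20 ± 0.15 (adjusted p = 0.524). Mmp14 also fell within iCMs between 2 and 4 weeks, by 0.72 ± 0.15 (adjusted p = 0.00343).

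Mmp16 encodes another membrane-type enzyme (MT3-MMP) that activates proMMP-2. It had 6.46, 6.61 and 6.24 in iCMs at 4 weeks and 6.64, 6.76 and 6.31 in iCMs at 2 weeks, against 8.09, 7.82 and 7.77 in GFP- cells at 4 weeks and 6.93, 7.61 and 7.28 at 2 weeks. CM had 8.25, 7.96 and 7.48, and CF had 10.25, 10.06 and 9.76. CF stood apart above every other array, and iCMs were the lowest group and close to the limit. In iCMs at 4 weeks Mmp16 was 12.1-fold lower than in CF (-3.59 ± 0.19, adjusted p = 7.45e-12) and lower than in CM by 1.46 ± 0.19 (adjusted p = 2.65e-06). Mmp9, gelatinase B, which is abundant in neutrophils and macrophages, was lower in iCMs than in GFP- cells by 1.46 ± 0.21 at 4 weeks (adjusted p = 1.32e-05) and by 0.94 ± 0.21 at 2 weeks (adjusted p = 0.00136). GFP- cells at 4 weeks spread widely for Mmp9, from 7.66 to 8.84, against 7.33 to 7.66 in CF. The part of macrophage transcripts in the Mmp9 values was not tested.

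**Figure D2:**
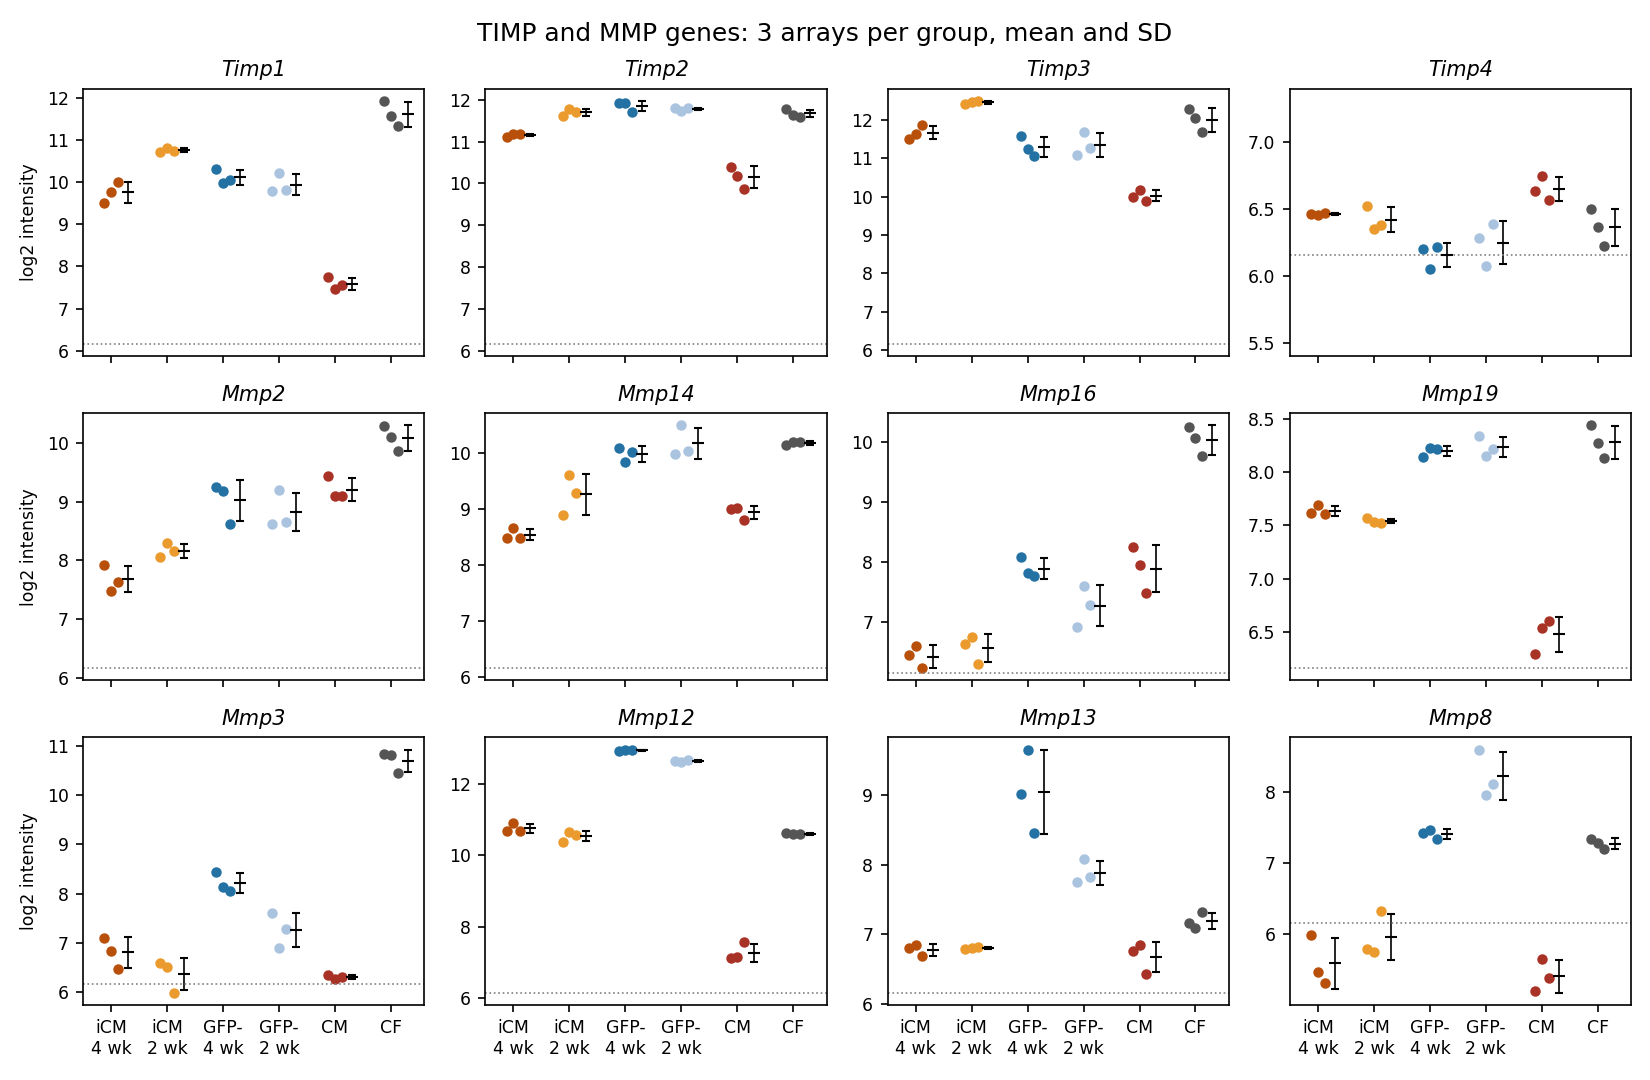
Log2 intensity of 4 Timp and 8 Mmp genes in each of the 18 arrays (points), with the group mean and SD beside them, for iCMs at 4 and 2 weeks, GFP- cells at 4 and 2 weeks, CM and CF; the dotted line is the limit of 6.16. Timp1 and Timp3 are highest in CF and in iCMs at 2 weeks, Mmp2 is lowest in iCMs, and Mmp12 is highest in GFP- cells.

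The 10 protein-coding Mmp genes that lie side by side on chromosome 9 are all members, in the order Mmp13, Mmp12, Mmp1b, Mmp3, Mmp1a, Mmp10, Mmp8, Mmp27, Mmp20 and Mmp7. Promoter windows of the 5 that carry the results are shown because members of this cluster moved in opposite directions between the same groups. Each window runs from 250 bases before to 50 after a RefSeq transcript start (GRCm38.p6, plus strand, 300 bases, 5′ to 3′). Capitals mark TGANTCA, the motif of the AP-1 factors, and TATAAA, the sequence of the TATA box, each searched on both strands. Whether a match acts as such an element was not tested. In Mmp8 the capitals TTTATA are TATAAA read on the minus strand.
Mmp13 (chr9:7272264-7272563): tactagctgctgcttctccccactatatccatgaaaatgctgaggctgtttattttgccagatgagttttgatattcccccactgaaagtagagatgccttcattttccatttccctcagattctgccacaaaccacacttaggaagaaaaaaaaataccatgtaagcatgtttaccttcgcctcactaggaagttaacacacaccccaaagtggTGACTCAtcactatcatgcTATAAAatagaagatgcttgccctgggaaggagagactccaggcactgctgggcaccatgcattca
Mmp12 (chr9:7347124-7347423): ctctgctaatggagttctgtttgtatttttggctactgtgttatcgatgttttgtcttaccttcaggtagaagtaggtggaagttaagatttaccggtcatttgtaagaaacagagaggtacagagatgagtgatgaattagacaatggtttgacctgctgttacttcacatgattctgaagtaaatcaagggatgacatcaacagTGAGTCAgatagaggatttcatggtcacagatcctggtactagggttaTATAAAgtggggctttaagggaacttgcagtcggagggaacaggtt
Mmp3 (chr9:7445572-7445871): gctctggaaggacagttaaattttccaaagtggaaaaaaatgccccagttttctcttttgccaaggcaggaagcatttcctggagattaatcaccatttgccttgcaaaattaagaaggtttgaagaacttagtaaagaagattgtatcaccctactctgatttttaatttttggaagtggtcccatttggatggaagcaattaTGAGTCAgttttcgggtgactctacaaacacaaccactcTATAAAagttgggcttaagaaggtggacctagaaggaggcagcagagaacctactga
Mmp8 (chr9:7558179-7558478): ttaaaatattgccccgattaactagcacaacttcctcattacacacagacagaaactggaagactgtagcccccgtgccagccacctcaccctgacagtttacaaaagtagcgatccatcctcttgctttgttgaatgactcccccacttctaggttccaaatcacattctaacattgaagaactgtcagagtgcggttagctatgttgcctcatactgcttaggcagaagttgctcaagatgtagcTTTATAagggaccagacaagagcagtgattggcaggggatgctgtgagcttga
Mmp27 (chr9:7571146-7571445): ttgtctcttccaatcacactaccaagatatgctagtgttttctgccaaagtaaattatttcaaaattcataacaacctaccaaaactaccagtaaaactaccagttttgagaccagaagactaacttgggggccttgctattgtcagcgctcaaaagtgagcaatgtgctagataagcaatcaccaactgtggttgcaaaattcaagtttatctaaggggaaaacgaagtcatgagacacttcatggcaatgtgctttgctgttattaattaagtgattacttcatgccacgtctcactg
No match of either motif overlaps another in these windows. TGANTCA began 35 bases before the start in Mmp13, 44 in Mmp12 and 46 in Mmp3, and was not found in the windows of Mmp8 and Mmp27. TATAAA began 16 bases before the start in Mmp13, 7 in Mmp3 and 3 in Mmp8. In Mmp12 it lay after the start, at position 5, and Mmp27 had none. A second Mmp12 window at another annotated start held neither motif. Over the cluster, 8 of 10 genes held TGANTCA, all 35 to 95 bases before the start, and 9 of 10 held TATAAA. The TATAAA matches were less uniform in place, from 123 bases before the start in Mmp7 to position 5 after it in Mmp12. Among the 38 other members with a window, 5 held TGANTCA and 6 held TATAAA. These counts are of genes with a match in any of their windows, and 48 of the 78 members had a window. Counted by window, 13 of 53 member windows held TGANTCA and 15 held TATAAA, and over all 32851 windows of that length 7.81% and 13.6% did. Mmp12 and Mmp13, higher in GFP- cells at 4 weeks than in CF, held TGANTCA, and so did Mmp3, which was lower there.

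Within the cluster GFP- cells and iCMs differed in 1 direction. In iCMs against GFP- cells, 6 of the 10 genes were called at 4 weeks, where 17.1% of all genes were lower, and 6 at 2 weeks, where 18.4% were, every one lower. The 5 genes with promoters shown were among the 6 at both times, with Mmp1a, which is under the limit in all groups, added at 4 weeks and Mmp10 at 2 weeks. In GFP- cells at 4 weeks against CF, Mmp12, Mmp13 and Mmp27 were higher (5.79% of all genes) and Mmp3 and Mmp10 were lower (5.70% of all genes). In CM against CF 7 were lower, beside 21.5% of all genes, and none of the others was called. The 7 include Mmp1b, which is under the limit in all groups, and the Mmp13 call there was lost on leaving out any of 5 arrays, among them CM replicate 3 (adjusted p = 0.177). Mmp20 and Mmp7, the last genes of the cluster, were called in no comparison, and Mmp1a and Mmp1b, near copies of each other whose signals may not be separable, were under the limit in all groups.

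Mmp3 encodes stromelysin-1, which cleaves many matrix proteins and activates other MMPs. It had 7.10, 6.84 and 6.47 in iCMs at 4 weeks, 6.59, 6.51 and 5.99 in iCMs at 2 weeks, 8.44, 8.14 and 8.05 in GFP- cells at 4 weeks and 7.60, 6.90 and 7.28 in GFP- cells at 2 weeks. CM had 6.34, 6.26 and 6.31, and CF had 10.85, 10.82 and 10.44. All CF arrays lay far above all other arrays, GFP- cells at 4 weeks came next, and CM and iCMs at 2 weeks lay close to the limit. Mmp3 was lower than in CF by 3.90 ± 0.18 in iCMs at 4 weeks (14.9-fold, adjusted p = 1.74e-12), by 2.49 ± 0.18 in GFP- cells at 4 weeks (5.63-fold, adjusted p = 1.02e-08) and by 4.40 ± 0.18 in CM (21.1-fold, adjusted p = 8.79e-14). It was lower in iCMs than in GFP- cells at 4 weeks by 1.41 ± 0.18 (adjusted p = 3.59e-06), and within GFP- cells it rose by 0.95 ± 0.18 between 2 and 4 weeks (adjusted p = 0.0013).

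Mmp12 encodes macrophage metalloelastase. Its level was 10.68, 10.89 and 10.68 in iCMs at 4 weeks and 10.37, 10.64 and 10.56 in iCMs at 2 weeks, against 12.91, 12.94 and 12.94 in GFP- cells at 4 weeks and 12.62, 12.60 and 12.64 at 2 weeks. CM had 7.12, 7.14 and 7.56, and CF had 10.62, 10.58 and 10.58. GFP- cells were the highest group at both times without overlap, CM was the lowest, and iCMs lay at the level of CF. Mmp12 was 5.06-fold higher in GFP- cells at 4 weeks than in CF (2.34 ± 0.10, adjusted p = 7.29e-12), 4.54-fold lower in iCMs than in GFP- cells at 4 weeks (-2.18 ± 0.10, adjusted p = 1.88e-12) and 9.95-fold lower in CM than in CF (-3.31 ± 0.10, adjusted p = 1.15e-15). In iCMs at 4 weeks the difference from CF was 0.16 ± 0.10 (adjusted p = 0.312), although 12 of 12 macrophage markers were lower there. Between GFP- cells at 4 weeks and CF the macrophage marker means were 11.96 to 12.12 against 11.69 to 11.96, so Mmp12 differed by more than the marker mean did. Between iCMs at 4 weeks and GFP- cells the marker means were 9.24 to 9.39 against 11.96 to 12.12, with 12 of 12 markers lower, and between CM and CF they were 6.61 to 6.78 against 11.69 to 11.96. The part of macrophage transcripts in the Mmp12 differences was not tested.

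Mmp13 (collagenase-3) and Mmp27, an MMP whose substrates are little studied, were higher in GFP- cells than in CF. Mmp13 had 6.80, 6.84 and 6.68 in iCMs at 4 weeks and 6.79, 6.80 and 6.81 in iCMs at 2 weeks, against 9.02, 9.66 and 8.45 in GFP- cells at 4 weeks and 7.75, 8.08 and 7.82 at 2 weeks. CM had 6.75, 6.85 and 6.43, and CF had 7.15, 7.09 and 7.31. All 6 GFP- arrays were above all CF arrays, and all iCM arrays were below them. Mmp13 was higher than in CF by 1.86 ± 0.19 in GFP- cells at 4 weeks (adjusted p = 9.44e-07), and lower in iCMs than in GFP- cells at 4 weeks by 2.27 ± 0.19 (adjusted p = 7.59e-09). In GFP- cells it rose by 1.16 ± 0.19 between 2 and 4 weeks (adjusted p = 0.000282), while in iCMs the difference was -0.03 ± 0.19 (adjusted p = 0.957). The test of the difference between the time courses gave -1.19 ± 0.27 (adjusted p = 0.0153). Endothelial markers also rose in GFP- cells between these times, 5 of 6 of them, with a median difference of 1.32, and their part in the Mmp13 values was not tested.

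Mmp27 had 7.14, 7.29 and 7.00 in iCMs at 4 weeks and 6.78, 6.41 and 6.77 in iCMs at 2 weeks, against 9.93, 10.00 and 9.45 in GFP- cells at 4 weeks and 8.74, 8.00 and 8.66 at 2 weeks. CM had 6.34, 6.59 and 6.89, and CF had 7.19, 7.32 and 7.42. GFP- cells stood above all other groups at both times. At 4 weeks Mmp27 was 5.59-fold higher in GFP- cells than in CF (2.48 ± 0.18, adjusted p = 9.22e-09) and 6.27-fold lower in iCMs than in GFP- cells (-2.65 ± 0.18, adjusted p = 3.78e-10). It rose in GFP- cells by 1.32 ± 0.18 between 2 and 4 weeks (adjusted p = 4.45e-05). Of the 6 endothelial markers, 5 rose in GFP- cells over the same time, and their part in the Mmp27 values was not tested.

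Mmp8, the collagenase of neutrophils, ran the other way with time in GFP- cells. It had 7.42, 7.47 and 7.34 in GFP- cells at 4 weeks, 8.59, 7.96 and 8.12 in GFP- cells at 2 weeks and 7.34, 7.29 and 7.19 in CF. Mmp8 fell by 0.81 ± 0.18 in GFP- cells between 2 and 4 weeks (adjusted p = 0.00356), and at 2 weeks it was higher than in CF by 0.95 ± 0.18 (adjusted p = 0.000632). In iCMs and CM the mean lay under the limit, between 5.41 and 5.96. Mmp8 was therefore at least 2.38-fold lower in iCMs than in GFP- cells at 4 weeks (adjusted p = 7.8e-08), at least 4.03-fold lower at 2 weeks (adjusted p = 3.36e-09) and at least 2.17-fold lower in CM than in CF (adjusted p = 3.38e-08). The part of macrophage transcripts in the Mmp8 values was not tested.

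**Figure D3:**
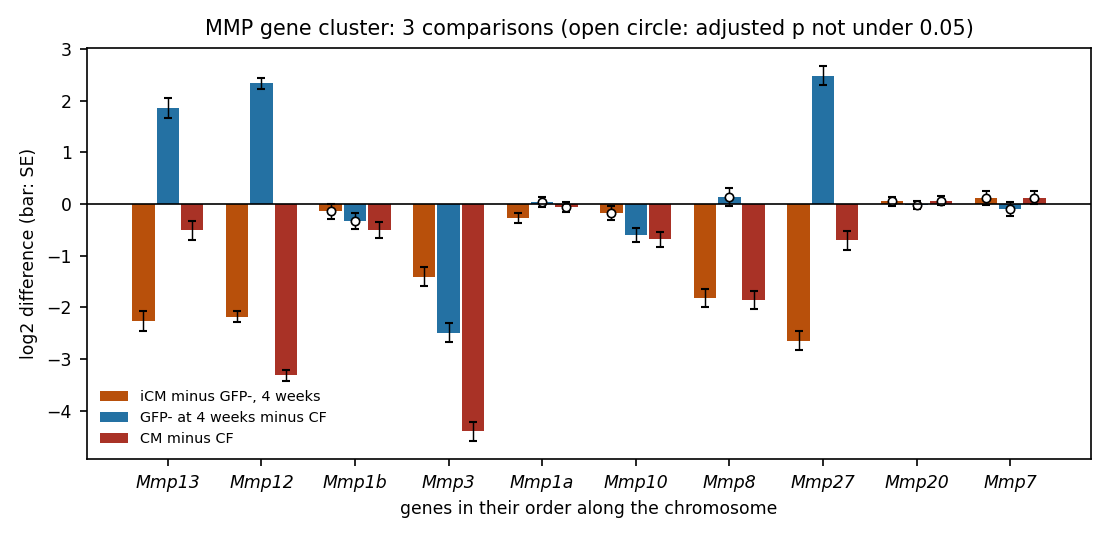
Log2 differences (bars, with SE) of the 10 genes of the MMP cluster in their order along the chromosome, for iCMs minus GFP- cells at 4 weeks, GFP- cells at 4 weeks minus CF, and CM minus CF; open circles mark differences that were not called. Mmp13, Mmp12 and Mmp27 are lower in iCMs than in GFP- cells and higher in GFP- cells than in CF, and Mmp3 is lower in all 3 comparisons.

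Among the other MMPs, Mmp23 encodes an enzyme anchored in the membrane by its N-terminal part. It had 8.56, 8.74 and 8.36 in iCMs at 4 weeks and 9.49, 9.54 and 9.59 in iCMs at 2 weeks, against 7.71, 7.68 and 7.73 in GFP- cells at 4 weeks and 8.02, 8.11 and 7.98 at 2 weeks. CM had 8.14, 8.02 and 8.20, and CF had 9.22, 9.09 and 8.92. Unlike Mmp2, Mmp12 or Mmp13, Mmp23 was higher in iCMs than in GFP- cells at both times, without overlap. It was higher in iCMs than in GFP- cells by 0.85 ± 0.10 at 4 weeks (adjusted p = 5.49e-07) and by 1.50 ± 0.10 at 2 weeks (adjusted p = 1.69e-10). In iCMs it fell by 0.99 ± 0.10 between 2 and 4 weeks (adjusted p = 4.49e-06), and the difference between the time courses of iCMs and GFP- cells was -0.66 ± 0.14 (adjusted p = 0.00798). Mmp11, stromelysin-3, was also higher in iCMs than in GFP- cells, by 0.49 at 4 weeks and 0.75 at 2 weeks. Mmp19 was lower in iCMs than in GFP- cells by 0.56 ± 0.09 at 4 weeks (adjusted p = 6.69e-05) and lower in CM than in CF by 1.80 ± 0.09 (adjusted p = 2.32e-12). Its group means, like those of the macrophage markers, were higher in GFP- cells and CF than in iCMs and lowest in CM. The part of macrophage transcripts in the Mmp19 values was not tested.

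Among the named ADAMTS genes, Adamts5 and Adamts12 had their highest group mean in CF, and Adamts3, Adamts4, Adamts6, Adamts9 and Adamts19 in CM. For Adamts9 the arrays of CM (9.35 to 9.58) and CF (8.68 to 9.42) overlapped. Adamts5, which encodes an aggrecanase and versicanase, had 7.70, 7.72 and 7.25 in iCMs at 4 weeks, 7.85, 8.21 and 8.05 in iCMs at 2 weeks, 7.92, 7.74 and 6.98 in GFP- cells at 4 weeks and 7.36, 8.05 and 7.47 in GFP- cells at 2 weeks. CM had 8.55, 8.20 and 7.96, and CF had 10.75, 10.61 and 10.38. CF was above every other array, and among the remaining groups iCMs at 4 weeks lay below iCMs at 2 weeks and CM without overlap. The level was lower than in CF by 3.02 ± 0.22 in iCMs at 4 weeks (8.12-fold, adjusted p = 8.66e-10), by 3.03 ± 0.22 in GFP- cells at 4 weeks (8.18-fold, adjusted p = 6.5e-09) and by 2.34 ± 0.22 in CM (5.06-fold, adjusted p = 1.91e-08). Between iCMs and GFP- cells at 4 weeks the difference was 0.01 ± 0.22 (adjusted p = 0.98). Adamts5 in iCMs at 4 weeks was lower than in CM by 0.68 ± 0.22 (adjusted p = 0.0181), a call lost without CM replicate 1 (-0.53, adjusted p = 0.104) or without iCM 4-week replicate 3 (-0.53, adjusted p = 0.104). Adamts12 was likewise lower than in CF, by 1.62 ± 0.19 in iCMs at 4 weeks, by 1.64 ± 0.19 in GFP- cells at 4 weeks and by 1.07 ± 0.19 in CM.

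Adamts1, which encodes another versicanase, separated iCMs from GFP- cells with time. It had 8.41, 8.44 and 8.11 in iCMs at 4 weeks and 8.44, 9.28 and 8.79 in iCMs at 2 weeks, against 10.39, 10.41 and 9.50 in GFP- cells at 4 weeks and 9.29, 9.26 and 9.28 at 2 weeks. CM had 9.29, 9.25 and 9.02, and CF had 9.66, 9.57 and 9.40. The 2-week groups overlapped through 1 iCM array at 9.28, while the 4-week groups were over 1 log2 unit apart. At 4 weeks Adamts1 was lower in iCMs than in GFP- cells by 1.78 ± 0.20 (3.44-fold, adjusted p = 4.72e-07), and at 2 weeks the difference was -0.44 ± 0.20 (adjusted p = 0.106). The difference between the time courses was -1.34 ± 0.28 (adjusted p = 0.00882), made up of a rise of 0.83 ± 0.20 in GFP- cells (adjusted p = 0.007) and a difference of -0.52 ± 0.20 in iCMs (adjusted p = 0.11). The endothelial marker mean was likewise higher in GFP- cells at 4 weeks (9.09) than at 2 weeks (8.03), and its part in the Adamts1 values was not tested. Adamts9, a related versicanase, was lower than in CF by 1.24 ± 0.20 in GFP- cells at 2 weeks (adjusted p = 0.000128) and lower than in CM by 0.98 ± 0.20 in iCMs at 4 weeks (adjusted p = 0.00052). All 6 of its probe sets had lower means in both of these comparisons. Adamts4 averaged 6.65 in iCMs at 4 weeks and 6.78 at 2 weeks, against 6.65 and 6.81 in GFP- cells. It averaged 7.09 in CM and 6.84 in CF. Its call in iCMs at 2 weeks against CM was lost on leaving out single arrays, among them CM replicate 1 (-0.25, adjusted p = 0.0966).

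Adamts19 and Adamts6 were high in CM and higher in iCMs than in GFP- cells. Mouse studies link both genes to heart development. Adamts19 had 8.09, 8.28 and 7.65 in iCMs at 4 weeks and 7.06, 7.42 and 6.97 in iCMs at 2 weeks, against 6.68, 6.63 and 6.53 in GFP- cells at 4 weeks and 6.64, 6.59 and 6.58 at 2 weeks. CM had 8.86, 9.00 and 8.90, and CF had 6.59, 6.63 and 6.50. The groups formed an order without overlap from CM through iCMs at 4 weeks and iCMs at 2 weeks to GFP- cells and CF, which overlapped. Adamts19 was higher than in CF by 1.43 ± 0.13 in iCMs at 4 weeks (2.7-fold, adjusted p = 2.34e-08), by 0.58 ± 0.13 in iCMs at 2 weeks (adjusted p = 0.00142) and by 2.35 ± 0.13 in CM (5.1-fold, adjusted p = 6.46e-12). In iCMs at 4 weeks it stayed below CM by 0.92 ± 0.13 (adjusted p = 8.45e-06). It rose in iCMs between 2 and 4 weeks by 0.85 ± 0.13 (adjusted p = 0.000303), and the difference from the time course of GFP- cells was 0.84 ± 0.18 (adjusted p = 0.0108).

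Adamts6 had 8.12, 8.52 and 7.69 in iCMs at 4 weeks and 6.92, 7.38 and 6.92 in iCMs at 2 weeks, against levels of 5.63 to 5.93 in all 6 GFP- arrays. CM had 8.44, 9.03 and 8.57, and CF had 6.58, 6.96 and 6.83. All GFP- arrays were under the limit, and 1 of the 3 arrays of iCMs at 4 weeks, at 8.52, reached the range of CM. Adamts6 in iCMs at 4 weeks was lower than in CM by 0.58 ± 0.18 (adjusted p = 0.0184), a call lost without CM replicate 2 (-0.40, adjusted p = 0.126) or without iCM 4-week replicate 3 (-0.37, adjusted p = 0.147). Adamts6 was at least 3.87-fold higher in iCMs than in GFP- cells at 4 weeks (adjusted p = 3.8e-09) and higher than in CF by 1.32 ± 0.18 (adjusted p = 8.82e-06). Between 2 and 4 weeks it rose in iCMs by 1.03 ± 0.18 (adjusted p = 0.00116). The means of the 8 cardiomyocyte markers, 12.11 in iCMs at 4 weeks, 11.35 in iCMs at 2 weeks and 13.11 in CM, had the same order as both genes over these 3 groups. In the other groups they did not follow Adamts6, since the marker mean was higher in GFP- cells (8.48 at 4 weeks and 8.40 at 2 weeks) than in CF (7.57), while Adamts6 averaged 5.82 and 5.79 in those GFP- cells, under the limit, and 6.79 in CF. Endothelial markers too were high in CM (9.22, against 6.77 in CF). The part of either marker set in these results was not tested.

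Adamts3, a procollagen N-proteinase that also processes VEGF-C, was high in CM alone. It had 8.06, 8.13 and 8.02 in iCMs at 4 weeks, 7.90, 7.95 and 7.90 in GFP- cells at 4 weeks, 9.43, 9.13 and 9.03 in CM and 8.03, 7.91 and 7.92 in CF. CM stood above every other array. It was higher in CM than in CF by 1.24 ± 0.09 (adjusted p = 7.1e-10) and lower in iCMs at 4 weeks than in CM by 1.12 ± 0.09 (adjusted p = 5.41e-09). The array carries 16 probe sets for Adamts3, and all 16 were called higher in CM than in CF, although 6 of them had a CF mean under the limit, so that their folds are not measured. The other 10, the one used among them, were higher by 0.56 to 3.11. Against CM all 16 were lower in iCMs at 4 weeks. Adamts17 had 5 probe sets that did not act alike: the one used differed by 0.19 between CM and CF, while 3 of the 5 were called higher there, by up to 1.23. In iCMs at 4 weeks against CF 3 of the 5 were also higher, by up to 1.13.

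**Figure D4:**
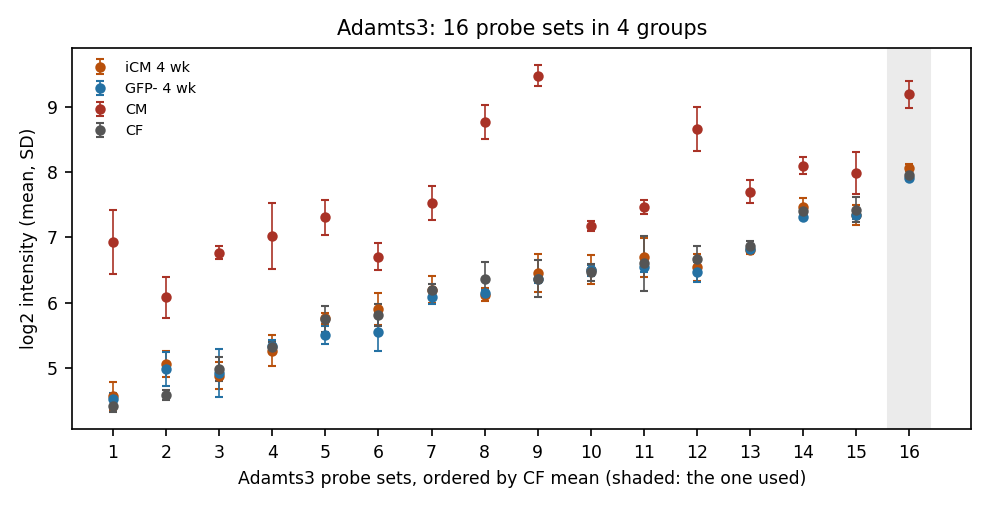
Log2 intensity (mean and SD, 3 arrays) of the 16 Adamts3 probe sets in iCMs at 4 weeks, GFP- cells at 4 weeks, CM and CF, ordered by the CF mean; the shaded probe set is the one used for the gene. CM lies above the other 3 groups at every probe set, by 0.56 to 3.11 over CF at the 10 whose CF mean is not under the limit of 6.16.

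Of the 9 somatic ADAM genes that keep a protease site, 5 were lower and 2 higher in iCMs than in GFP- cells at 4 weeks, beside 17.1% and 17.2% of all genes. Adam8, which is found on leukocytes, was 8.11, 7.90 and 7.96 in iCMs at 4 weeks and 8.73, 8.82 and 8.63 in iCMs at 2 weeks, against 10.77, 10.75 and 10.62 in GFP- cells at 4 weeks and 11.19, 11.16 and 11.18 at 2 weeks. CM had 7.57, 7.15 and 7.50, and CF had 10.42, 10.43 and 10.38. The order of groups without overlap was GFP- cells, CF, iCMs and CM. Adam8 was lower in iCMs than in GFP- cells by 2.72 ± 0.10 at 4 weeks (6.6-fold, adjusted p = 4.12e-14), lower in iCMs at 4 weeks than in CF by 2.42 ± 0.10 (adjusted p = 1.89e-13) and lower in CM than in CF by 3.00 ± 0.10 (adjusted p = 1.94e-15). This is the order of the macrophage marker means given above, whose part in it was not tested.

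Adam17 encodes the sheddase that releases TNF from the cell surface. It had 9.65, 9.77 and 9.71 in iCMs at 4 weeks and 9.88, 10.23 and 10.12 in iCMs at 2 weeks, against 10.87, 10.82 and 11.02 in GFP- cells at 4 weeks and 11.22, 11.40 and 11.13 at 2 weeks. CM had 9.31, 9.01 and 9.04, and CF had 10.81, 10.87 and 10.95. At each time iCMs lay below GFP- cells and CF and above CM with no overlap. In iCMs Adam17 was lower than in GFP- cells by 1.19 ± 0.10 at 4 weeks (adjusted p = 1.36e-08) and by 1.18 ± 0.10 at 2 weeks (adjusted p = 1.65e-08). Its group means fell from GFP- cells through CF and iCMs to CM, as the macrophage marker means did. The part of macrophage transcripts in the Adam17 values was not tested.

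For Adam10, the sheddase that acts on Notch, iCMs at 4 weeks differed from GFP- cells in the opposite direction to Adam17. It had 10.90, 10.97 and 10.83 in iCMs at 4 weeks, 10.61, 10.53 and 10.53 in GFP- cells at 4 weeks, 9.45, 9.64 and 9.35 in CM and 10.53, 10.42 and 10.47 in CF. All arrays of iCMs at 4 weeks lay above those of GFP- cells and CF, and CM was well below. Adam10 was higher in iCMs than in GFP- cells at 4 weeks by 0.34 ± 0.09 (adjusted p = 0.00643), higher than in CF by 0.42 ± 0.09 (adjusted p = 0.00116) and lower in CM than in CF by 1.00 ± 0.09 (adjusted p = 1.64e-08). At 2 weeks Adam10 had 10.55, 10.81 and 10.69 in iCMs, against 10.57, 10.78 and 10.70 in GFP- cells, which overlapped, with a difference of 0.00 ± 0.09 (adjusted p = 0.995). Whether the 2 sheddases differ in their response was not tested.

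Adam9, a widely expressed sheddase, was lower in iCMs than in GFP- cells by 0.91 ± 0.10 at 4 weeks (adjusted p = 2.15e-07) and lower in CM than in CF by 2.01 ± 0.10 (adjusted p = 8.21e-13). Adam15 was lower in iCMs than in GFP- cells at 4 weeks by 0.73 ± 0.09 (adjusted p = 1.94e-06). For Adam9 and Adam15 the group means were higher in GFP- cells and CF than in iCMs and lowest in CM, as for the macrophage markers. The part of macrophage transcripts in these values was not tested. Adam19, needed for heart development in mice, differed between iCMs and GFP- cells in the opposite direction. It was 8.97, 8.86 and 9.00 in iCMs at 4 weeks and 9.27, 8.79 and 9.24 in iCMs at 2 weeks, against 8.14, 8.17 and 7.80 in GFP- cells at 4 weeks and 7.87, 8.19 and 7.85 at 2 weeks. The iCM arrays were above all GFP- arrays, by 0.91 ± 0.14 at 4 weeks (adjusted p = 3.23e-05) and by 1.13 ± 0.14 at 2 weeks (adjusted p = 1.85e-06). Adam12 averaged 6.87 in iCMs at 4 weeks and 6.76 at 2 weeks, against 7.43 and 7.16 in GFP- cells. It averaged 7.16 in CM and 7.52 in CF. Its calls in CM against CF, and in iCMs at 2 weeks against CM and against GFP- cells, were each lost on leaving out single arrays.

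Adam22 and Adam23 lack protease activity and are known as receptors of LGI proteins in neurons. Adam22 was 7.46, 7.74 and 7.34 in CM, against 5.98, 5.82 and 5.80 in CF, which is under the limit. Adam22 was at least 2.56-fold higher in CM than in CF (adjusted p = 4.36e-10), and in iCMs at 4 weeks it was at least 2.53-fold lower than in CM (adjusted p = 8.78e-09). Adam23 was lower than in CF by 1.24 ± 0.19 in GFP- cells at 4 weeks (adjusted p = 0.0001) and by 1.06 ± 0.19 in CM (adjusted p = 9.13e-05). It was higher in iCMs than in GFP- cells at 4 weeks by 0.75 ± 0.19 (adjusted p = 0.00317). The 46 members not named for their size had called differences of at most 0.92 in absolute value, among them Adamts20, which was higher in iCMs than in GFP- cells by 0.72 at 4 weeks and 0.67 at 2 weeks.

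**Figure D5:**
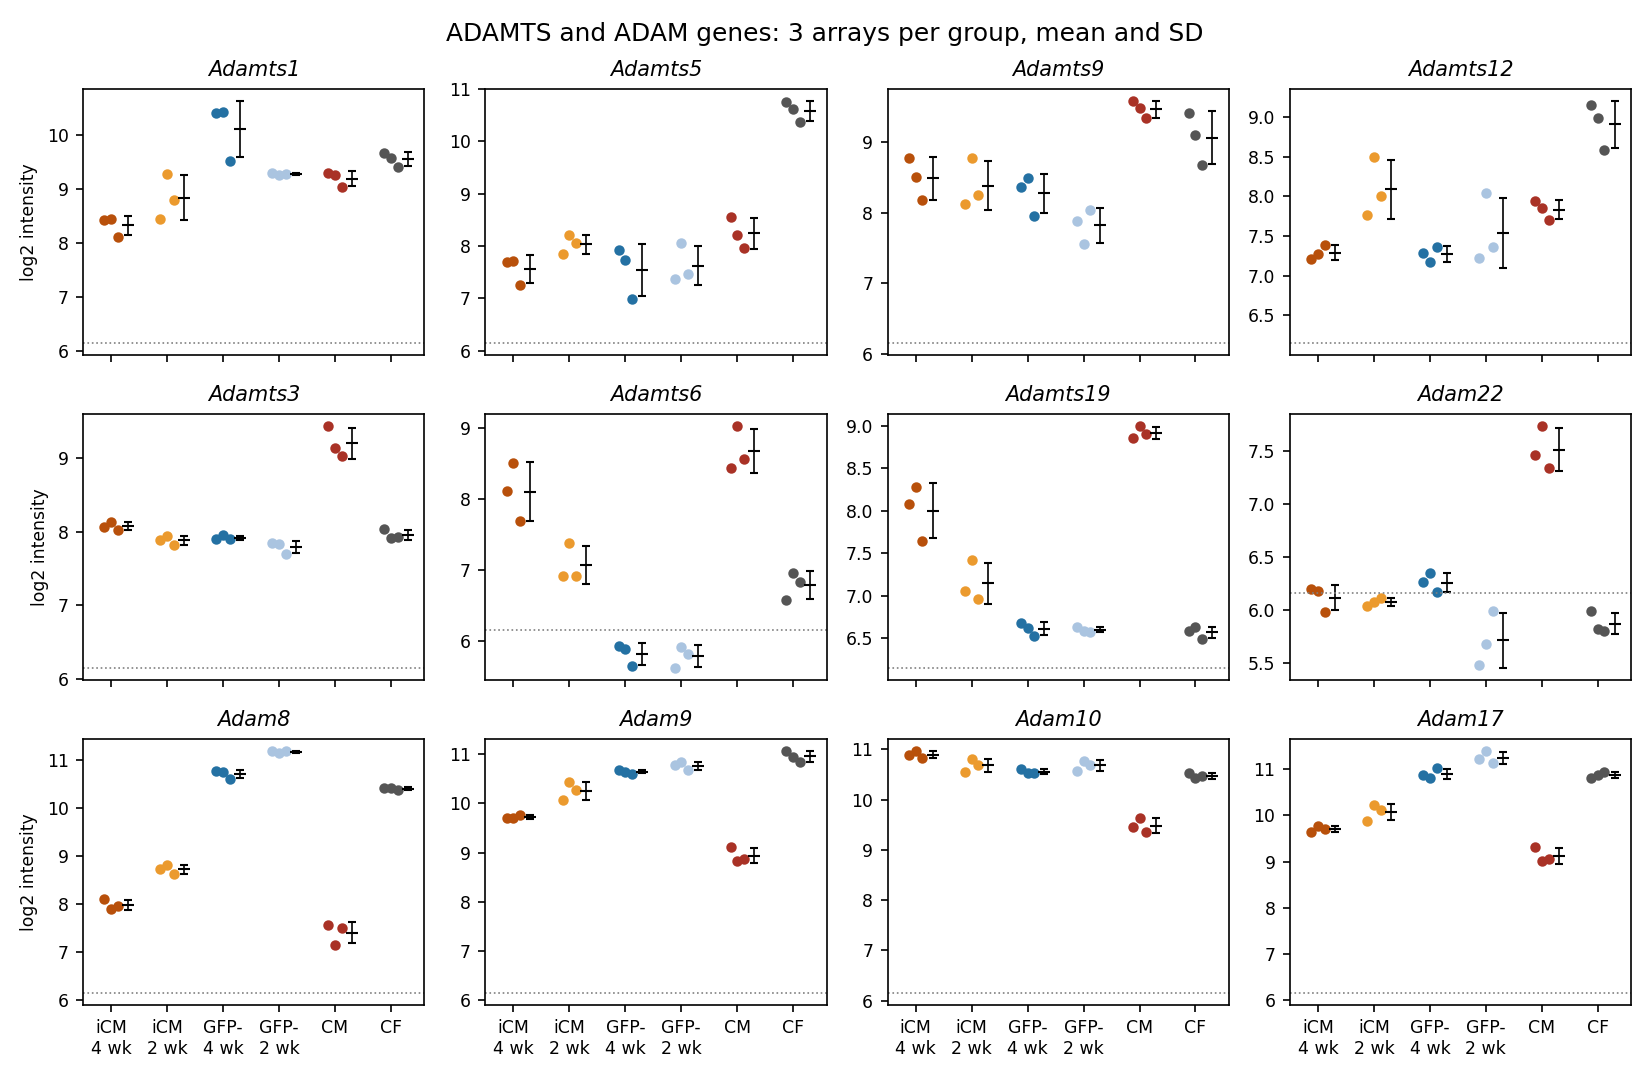
Log2 intensity of 7 Adamts and 5 Adam genes in each of the 18 arrays (points), with the group mean and SD beside them, for iCMs at 4 and 2 weeks, GFP- cells at 4 and 2 weeks, CM and CF; the dotted line is the limit of 6.16. By group mean Adamts5 and Adamts12 are highest in CF, Adamts3, Adamts6, Adamts9, Adamts19 and Adam22 are highest in CM, and Adam8 is highest in GFP- cells.

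In iCMs 14 members were called between 4 and 2 weeks, where 11.5% of all genes were, with 3 higher (4.29% of all genes) and 11 lower (7.24% of all genes) at 4 weeks. With array weights 29 were called. The higher ones were Adamts6, Adamts19 and Adam1a, and the lower ones included Timp1, Timp2, Timp3, Mmp14, Mmp23, Adam8 and Adam9. In GFP- cells 17 were called, beside 17.4% of all genes, with 8 higher (7.16% of all genes) and 9 lower (10.2% of all genes) at 4 weeks. That count rested on single arrays: it was 7 without replicate 1 and 11 without replicate 3 of the GFP- cells at 2 weeks, and 8 without replicate 1 or without replicate 2 of those at 4 weeks. The time courses of iCMs and GFP- cells differed for 7 members, beside 3.94% of all genes, with 2 higher (1.86% of all genes) and 5 lower (2.08% of all genes). These were Adamts6, Adamts19, Adamts1, Mmp13, Mmp23, Timp1 and Timp2. The Adamts6 call was lost in 10 of 20 alternatives (adjusted p up to 0.0917), 9 of them single arrays left out, and the Timp2 call in 7, each without 1 array (adjusted p up to 0.0752).

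Other genes of the pathway were read from lists chosen with earlier results in view. Among 14 ADAMTS-like genes and other regulators of metalloproteinases, 6 were higher in iCMs than in GFP- cells at each time, beside 17.2% of all genes at 4 weeks and 16.2% at 2 weeks. Reck, a membrane-anchored inhibitor of MMPs, averaged 9.74 in iCMs at 4 weeks, 10.99 in iCMs at 2 weeks, 8.60 in GFP- cells at 4 weeks, 8.57 in GFP- cells at 2 weeks, 7.92 in CM and 8.62 in CF. Its level in iCMs was above that in GFP- cells by 1.15 ± 0.15 at 4 weeks (adjusted p = 3.29e-06) and by 2.42 ± 0.15 at 2 weeks (adjusted p = 9.91e-11). Like Timp1 and Timp3, Reck fell in iCMs between 2 and 4 weeks, by 1.25 ± 0.15 (adjusted p = 3.45e-05). Adamtsl1, an ADAMTS-like protein without a protease domain, was higher in iCMs than in GFP- cells by 1.98 ± 0.16 at 4 weeks and by 1.43 ± 0.16 at 2 weeks.

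Of 5 genes for procollagen C-proteinases and their enhancers, 2 were higher and 2 lower in iCMs than in GFP- cells at 4 weeks, beside 17.2% and 17.1% of all genes. The higher ones were Pcolce, the enhancer of procollagen C-proteinase, by 2.26 ± 0.12 (adjusted p = 1.25e-11), and Bmp1, the C-proteinase itself, by 0.95 ± 0.11 (adjusted p = 3.82e-07). The lower ones were Pcolce2, a second enhancer, by 1.49 ± 0.16 (adjusted p = 2.78e-07), and Tll1, a C-proteinase related to Bmp1, by 0.94 ± 0.14 (adjusted p = 1.99e-05). Of 11 genes for other matrix and cell surface proteases, 2 were higher and 2 lower in this comparison, beside 17.2% and 17.1% of all genes. Htra1, a secreted serine protease, was among the higher, by 2.60 ± 0.18 (adjusted p = 6.29e-10). In the plasminogen system, whose enzyme plasmin can activate proMMPs, 5 of 7 measured genes were lower in iCMs than in GFP- cells at 4 weeks (17.1% of all genes). Plau, which encodes urokinase, was lower by 2.24 ± 0.21 (adjusted p = 2.82e-08) and its receptor gene Plaur by 1.16 ± 0.13 (adjusted p = 3.15e-07). The inhibitor gene Serpinb2 was lower too, averaging 6.07 in iCMs, under the limit, and 7.18 in GFP- cells. Of 8 cathepsin and cystatin genes 6 were lower in the same comparison, beside the same 17.1%. Among them Ctss, a lysosomal protease of macrophages and other antigen-presenting cells, was lower by 2.00 ± 0.12 (adjusted p = 5.4e-11). In CM against CF 8 of 8 of these were lower, beside 21.5% of all genes, and Ctss differed by -5.21 ± 0.12 (adjusted p = 1.34e-17), alongside the 12 of 12 macrophage markers that were lower there.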

How the data were processed

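The authors deposited log2 intensities per probe set for 18 arrays, made by RMA per the submitters' processing notes, which corrects background, normalizes across arrays and summarises probes; the software version is not given in the sources used here. RMA puts arrays that are normalized together on a common distribution, so levels are relative, and dim probe sets are compressed towards background. Whether all 18 arrays were normalized together is not given in the sources used here. Their medians, between 7.32 and 7.44, were taken as comparable. Of 28682 probe sets, 21755 named 1 gene, 1592 several and 5335 none; only those naming 1 gene were used, the brightest over the 18 arrays for each gene, which gave 19912 genes. All 78 member symbols matched RefSeq (GRCm38.p6), from which gene order and promoter windows were taken.

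All 18 arrays entered 1 linear model per gene, with group as the only term, in limma 3.58.1 (lmFit and eBayes, R 4.3.3). From it came 11 pairwise comparisons and 1 of the change with time in iCMs minus that in GFP- cells. Tests were two-sided, adjusted by Benjamini-Hochberg over all genes, and checked on simulated data. The number of arrays limits the precision. Members, lists and marker genes were chosen with earlier results of these data known. Named with values were the 4 Timp genes and the best known Mmp, Adam and Adamts genes. So was every member called with a difference of at least 1 log2 unit. From the lists of other genes only some called genes were named, not always those with the largest differences. Lists of ADAM10 and ADAM17 regulators and of ADAMTS substrates were also drawn up, and their genes are not reported here. Mmp11, Adamts17 and Adamts20 and the cluster's other genes were named after their values were seen. Alternatives were quantile normalization, median centring, a filter on dim genes, the mean of a gene's probe sets, a fit on the groups compared, an intensity trend, array weights, replicate number as a block and leaving out each array.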

Additional observations from a re-analysis of the deposited data

Results flagged for a closer look

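The change between 2 and 4 weeks differed between iCMs and GFP- cells for 7 members, by limma's test of the difference between the time courses (iCMs minus GFP-). For Timp1 it was -1.18 (adjusted p = 0.00265), and over 20 alternatives it ran from -1.32 to -1.05. For Mmp23 it was -0.655 (adjusted p = 0.00798; alternatives from -0.821 to -0.558). Adamts1 gave -1.34 (adjusted p = 0.00882), with -1.64 to -1.12 over the alternatives, and Mmp13 gave -1.19 (adjusted p = 0.0153), with -1.49 to -0.88. Adamts19 gave 0.84 (adjusted p = 0.0108), with 0.70 to 1.02. These 5 calls held in all 20 alternatives. Adamts6 gave 1.00 (adjusted p = 0.0334), with 0.68 to 1.21 and the call lost in 10, and its GFP- levels were under the limit of 6.16 at both times. Timp2 gave -0.61 (adjusted p = 0.0255), with -0.68 to -0.57 and the call lost in 7. The macrophage marker mean moved little in GFP- cells between the times (12.01 at both) and was 9.30 in iCMs at 4 weeks against 9.74 at 2 weeks. The endothelial marker mean was 9.09 in GFP- cells at 4 weeks against 8.03 at 2 weeks (5 of 6 markers higher), and in iCMs 7.30 against 6.93 (3 of 6 higher). The fibroblast marker mean was 8.87 in GFP- cells at 4 weeks against 8.66 at 2 weeks. Of the 10 markers there, 3 were higher and 3 lower, with a median difference of -0.40. In iCMs the mean was 8.44 against 8.92 (7 of 10 lower, 1 higher). The part of these markers in the differences was not tested.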

How the results depend on the processing

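Counts of members called stayed within 1.5 times of those given, with these exceptions. Array weights gave 34 members (15 higher, 19 lower) for GFP- cells at 2 weeks against CF, 29 (11 higher, 18 lower) for iCMs at 4 against 2 weeks and 24 (7 higher, 17 lower) for the difference between time courses. For GFP- cells at 4 against 2 weeks, a fit on those groups alone gave 11 (7 higher, 4 lower). In the same comparison, leaving out single arrays gave 7, 11, 8 and 8, as listed above. The cause was not tested.

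Leaving out each array in turn gave 32 to 37 members for CM against CF, 26 to 29 for iCMs at 4 weeks against CF and 27 to 29 at 2 weeks, 16 to 20 for GFP- cells at 4 weeks against CF and 19 to 23 at 2 weeks. The range was 26 to 31 for iCMs against GFP- cells at 4 weeks and 23 to 27 at 2 weeks, 25 to 29 for iCMs at 4 weeks against CM and 22 to 30 at 2 weeks. Between times it was 10 to 15 in iCMs, 7 to 15 in GFP- cells and 5 to 10 for the difference between time courses.

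Over all groups, same-numbered arrays did not in general deviate together. Of 45 such pairs 15 had a correlation over 0.1 (-0.301 to 0.454, median -0.002). For arrays 1, 2 and 3 it was 0.454, 0.345 and 0.084 between iCMs at 2 and 4 weeks. Different-numbered arrays there ran from -0.479 to 0.294. Between iCMs and GFP- cells it was 0.27, 0.378 and -0.301 at 2 weeks, and -0.116, -0.104 and 0.119 at 4 weeks. Whether the numbers pair the samples of these groups cannot be settled from so few pairs. With the replicate number as a block the counts were 29 for iCMs at 4 weeks against CF, 31 for iCMs against GFP- cells at 4 weeks, 28 at 2 weeks, 42 for CM against CF, 23 for GFP- cells at 4 weeks against CF and 7 for the time courses. 

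Of 384 differences of named members, 235 were called. Over 5544 alternative values 5280 kept their side of the threshold and direction, 166 lost and 98 gained a call, and no sign of a called difference turned. Of the 121 called differences of at least 1 log2 unit, the Adamts6 difference between time courses alone lost its call. Signal near background limits what can be seen for 17 members under the limit in all groups.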
